A study of Oryza sativa Japonica Group with 17 samples.

Results

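The 24-nt small RNAs of rice leaves were compared between the mutant osdrm2 and its control Cr-DJ. They were taken as every alignment in the deposited list of each library, which makes 2 libraries of the 17 samples in the series. Peak lists of 2 further samples were set beside them, H3K27me3 of Cr-DJ and H3K9me2 of a sample labelled with the variety ZH11. The lists held 11243 positions in Cr-DJ and 20576 in osdrm2, or 29212 distinct positions, and positions of both lists that lay within 200 bp of each other were merged into 22817 loci. Identical alignments were counted as the reads of a position. Every line of both lists was used.

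Both small RNA libraries came from total RNA of leaves of 12-day-old seedlings (Oryza sativa, japonica). The labels name the variety DongJin as the source of both. The control carries the label DJ and the mutant the label osdrm2, with no treatment of either. The labels do not describe the osdrm2 allele, the number of plants or whether plants were pooled. Each genotype had 1 library, so no difference between the genotypes was tested, and every interval below is a 95% interval for counting error alone. Amplified reads are not independent molecules, and plant-to-plant spread is not in these intervals. A list of small RNA alignments measures neither the OsDRM2 transcript nor leaf marker genes, so the genotype and tissue labels could not be checked from it.

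In plants, 24-nt small interfering RNAs are cut by a Dicer-like enzyme from double-stranded RNA that begins with transcripts of the plant-specific RNA polymerase IV. An Argonaute protein of the AGO4 type binds them and pairs with nascent transcripts at the matching locus. DRM2 is the DNA methyltransferase recruited there, and it adds methyl groups to cytosines in all sequence contexts. The methylated locus can in turn attract the polymerase again, so that small RNAs and methylation can maintain each other at a locus. In grasses much of this activity lies near genes, at short transposons and at the edges of longer ones.

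The lists summed to 106418 reads in Cr-DJ and 155764 in osdrm2. No listed position had fewer than 4 reads, so a position missing from a list may still have had reads, taken here as up to 3. The minimum also held for each run of identical lines, and 23 positions in Cr-DJ and 18 in osdrm2 had a second run. An unlisted position with several runs could therefore have had more than 3 reads. The total number of reads sequenced per library is unknown from the lists. Levels are therefore given as reads per 1000000 listed reads (RPM), and "listed" is used in place of "expressed". Alignments of 24 nt made up 99.4% of the reads in Cr-DJ and 99.1% in osdrm2, and the rest were of 22 or 23 nt. All lines carry the plus strand, so the strand of the RNA is not known. The sources used here do not name the genome build, and loci are placed by the coordinates of the files without gene annotation.

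The osdrm2 list held more positions, and a larger share of them sat at the list minimum. Positions with exactly 4 reads were 43.5% of the osdrm2 list against 34.4% of the Cr-DJ list, and positions with at least 10 reads numbered 2574 and 2270. The 100 positions with the most reads held 19.1% of the reads in Cr-DJ and 14.1% in osdrm2. Positions with at least 50 reads numbered 139 in Cr-DJ and 151 in osdrm2, so that at this level the lists were close in size. The ratio of osdrm2 to Cr-DJ positions was 1.83 over all positions and 1.13 at 10 reads or more. A random draw of 106418 osdrm2 reads, the Cr-DJ total, left 81970 reads above the list minimum, and the ratio then was 0.934. A draw that left as many listed reads as in Cr-DJ (106456) gave 1.24. The count of positions is therefore given without a direction.

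Most loci were in 1 list only. Of the 22817 loci, 2567 (11.3%) had reads in both lists, 6087 (26.7%) in Cr-DJ only and 14163 (62.1%) in osdrm2 only. The draw of 106418 osdrm2 reads gave 2001, 6658 and 6898 loci, and the draw with as many listed reads as in Cr-DJ gave 2243, 6413 and 9410. The excess of osdrm2-only loci was smaller in both draws. A draw from osdrm2 alone can hardly do otherwise, and the part of depth in the excess was not tested. The loci of both lists carried 43.9% of all Cr-DJ reads and 42.3% of all osdrm2 reads, although they were the smallest class. Their median was 19 reads, both lists together, against 5 reads in each of the classes of 1 list. In loci of both lists the most-read position started at the same base in 1901 of 2567 loci (74.1%), and in 384 (15.0%) the most-read positions did not overlap.

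Over all loci, 29.7% of those in the Cr-DJ list were also in the osdrm2 list, and 15.3% of those in the osdrm2 list were also in the Cr-DJ list. Among abundant loci the order was turned. Of the 218 osdrm2 loci with at least 50 reads, 208 were also in the Cr-DJ list (95.4%, Wilson interval 91.8 to 97.5%). Of the 207 Cr-DJ loci with at least 50 reads, 101 were also in the osdrm2 list (48.8%, Wilson interval 42.1 to 55.6%), and 106 were not. In the class of 50 to 99 reads, 139 of 148 osdrm2 loci were present in Cr-DJ (93.9%) and 55 of 141 Cr-DJ loci in osdrm2 (39.0%). In the classes of 4 to 5, 6 to 9 and 10 to 19 reads the osdrm2 shares were the lower ones, at 6.42%, 14.7% and 31% against 24.8%, 31.3% and 34.9% of Cr-DJ loci. With osdrm2 drawn to as many listed reads as Cr-DJ, 44.9% of Cr-DJ loci with at least 50 reads and 96.5% of such osdrm2 loci were found in the other list, though a draw from osdrm2 can hardly raise the first share. The read classes were chosen with these data known.

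**Figure D1:**
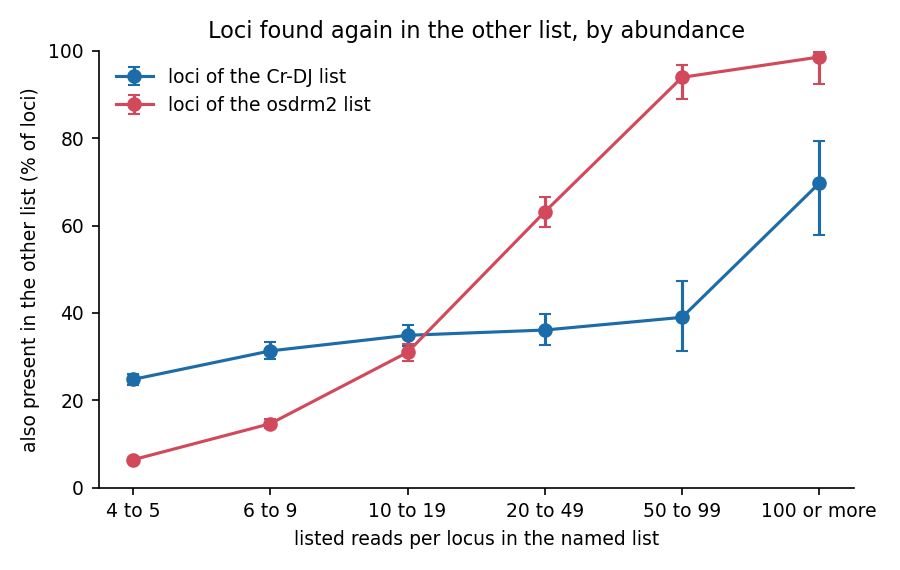
Share of loci that were also present in the other list (y axis, percent of loci) against the number of listed reads of the locus in its own list (x axis, classes). Points are the loci of the Cr-DJ list (blue) and of the osdrm2 list (red), 1 library each, with Wilson 95% intervals for counting error. The osdrm2 line climbs from 6.42% to 98.6%, whereas the Cr-DJ line stays between 24.8% and 39.0% up to 99 reads and reaches 69.7% at 100 reads or more.

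The 106 abundant loci that only Cr-DJ listed were mostly short. Their median was 72.5 reads over 3 positions, their median width was 31 bp, and 17 of them were a single position. On the 12 chromosomes their number ranged from 1 on chromosome 11 to 16 on chromosome 1. In 7 of the 106 an osdrm2 position lay within 1 kb, and in 65 within 10 kb, with a median distance of 5983 bp. The same distances were not taken over all loci that only Cr-DJ listed, so they are not read as a trait of the 106. None of the 106 met an H3K9me2 peak and 14 met an H3K27me3 peak. Of all loci that only Cr-DJ listed 0.772% met an H3K9me2 peak and 12.8% an H3K27me3 peak, so neither count sets the 106 apart. Of the 101 abundant Cr-DJ loci that osdrm2 also listed, 7 met an H3K9me2 peak and 9 an H3K27me3 peak, and their median width was 67 bp.

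The largest of the loci that only Cr-DJ listed lay on chromosome 1 from 37788200 to 37788299. It had 1291 reads there (exact Poisson interval 1222 to 1363) at 7 positions, or 12131 RPM, and no listed read in osdrm2. Position 37788275 to 37788298 alone had 870 of these reads. Over these 7 positions, with each set in osdrm2 at the 3 reads that the list minimum allows, Cr-DJ stood at least 90.0-fold above osdrm2 in RPM. This bound and those that follow are for the summed reads of the listed positions of a locus, since other starts within it could also have had unlisted reads. The bounds use the counts without their intervals and rest on at most 3 reads at an unlisted position.

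Chromosome 5 held 3 more of the 5 most-read loci of this kind. The locus from 21554092 to 21554115 was a single position with 201 reads in Cr-DJ (interval 174 to 231), at least 98.1-fold above osdrm2. The locus from 4416828 to 4416851 had 180 reads, 176 of them at 1 position, at least 43.9-fold above. The locus from 28826383 to 28826440 had 210 reads at 7 positions and was at least 14.6-fold above. On chromosome 2, the locus from 25353056 to 25353088 spread 199 reads over 8 overlapping positions, none above 51 reads, and was at least 12.1-fold above. These 5 loci thus included both single small RNAs and short stacks of staggered ones.

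The most-read loci that only osdrm2 listed had fewer reads than those that only Cr-DJ listed, although the median of both classes was 5 reads. The largest, on chromosome 10 from 15836938 to 15836961, had 119 reads (interval 98.6 to 142), or 764 RPM, and stood at least 13.6-fold above Cr-DJ. It lay in an H3K27me3 peak. On chromosome 9 the locus from 10406803 to 10406989 had 95 reads at 8 positions, at least 2.70-fold above Cr-DJ. A locus on chromosome 7 from 16726589 to 16726670 had 70 reads at 7 positions, at least 2.28-fold above. The other 2 of the 5 most-read loci of this kind were on chromosome 3. From 20583732 to 20583760 there were 66 reads, at least 5.01-fold above Cr-DJ, and from 9676013 to 9676037 there were 63 reads, at least 7.17-fold above. Only 10 osdrm2 loci with at least 50 reads were missing from the Cr-DJ list, and none of the 10 met an H3K9me2 peak. Of all loci that only osdrm2 listed 7.07% met one, so a count of none among 10 does not set them apart.

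Apart from the locus on chromosome 1, the 5 loci with the most reads were listed in both genotypes. On chromosome 2 from 1553162 to 1553230, the locus with the most reads of all, Cr-DJ had 6557 reads (interval 6399 to 6718) and osdrm2 7076 (6912 to 7243). A single position held 97.3% of these reads in Cr-DJ and 97.1% in osdrm2. This was 61616 RPM in Cr-DJ and 45428 RPM in osdrm2, a ratio of 0.737, whereas the ratio of the reads themselves was 1.08. The direction at this locus therefore turned with the scaling.

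On chromosome 10 from 4833401 to 4833673, the second most-read locus, Cr-DJ had 1000 reads and osdrm2 1731, which is 9397 and 11113 RPM. One position from 4833470 held 96.5% of the reads in Cr-DJ and 96.9% in osdrm2. On chromosome 4 from 28585250 to 28585277 Cr-DJ had 679 reads and osdrm2 549, or 6380 and 3525 RPM. Both lists again had the same leading position there, with 662 and 522 reads. At these 3 loci a single small RNA made up nearly all reads in both libraries.

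A different picture came from the long locus on chromosome 12 from 9355782 to 9356879. It had 878 reads at 36 positions in Cr-DJ and 440 reads at 30 positions in osdrm2, which is 8250 and 2825 RPM, 2.92-fold higher in Cr-DJ. The leading position changed as well, from 9356707 in Cr-DJ with 264 reads to 9355783 in osdrm2 with 113 reads. These loci of chromosomes 1, 2, 4 and 12 had 4 of the 5 largest losses of RPM in osdrm2 among loci with at least 100 reads, and the other was on chromosome 5 from 24798492 to 24798516. That locus had 353 reads in Cr-DJ (interval 317 to 392) and 64 in osdrm2 (interval 49.3 to 81.7), and was 8.07-fold higher in Cr-DJ in RPM.

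The 5 largest gains of RPM in osdrm2 were on chromosomes 3, 8 and 10, and included the second most-read locus given above. On chromosome 8 from 9076489 to 9076515 Cr-DJ had 240 reads and osdrm2 815, a 2.32-fold higher RPM, with the same leading position in both. Also on chromosome 8, from 8702823 to 8702915, the numbers were 22 reads (interval 13.8 to 33.3) and 339 (interval 304 to 377), 10.5-fold higher in osdrm2. The single position on chromosome 3 from 36187272 to 36187295 had 50 and 337 reads, 4.60-fold higher. On chromosome 10 from 2756794 to 2757305 the locus went from 62 reads at 8 positions to 357 reads at 29 positions, 3.93-fold higher. In the order given, the ratios of the reads themselves at these 4 loci were 3.40, 15.4, 6.74 and 5.76, and that of the list totals was 1.46. The loci were chosen for their rise in RPM, so a ratio of reads above that of the totals is given by the choice.

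Across all loci with at least 20 reads in both lists together, high and low values in osdrm2 were about equally common. Of 2123 such loci, 792 (37.3%) were at least 2-fold higher in osdrm2 and 805 (37.9%) at least 2-fold lower in RPM. A list without the locus was set at 3 reads per locus for this count, so every locus of 1 list counted as 2-fold. At 3 reads for each position of the other list, as in the bounds above, 687 were higher and 805 lower. The composition of the classes was unlike. The lower ones were mainly loci missing from osdrm2 (552 of 805), whereas the higher ones were mainly loci that both lists held (493 of 792). In loci of both lists the median ratio of osdrm2 to Cr-DJ was 1.46, a log2 of 0.54, so the scaling matters. When the loci of both lists were instead scaled to a median ratio of 1, 562 loci were higher and 907 lower. The draw of 106418 osdrm2 reads gave 468 higher and 739 lower, and the draw with as many listed reads as in Cr-DJ gave 563 and 773. The reads themselves, without scaling, gave 979 higher and 741 lower. No overall direction is therefore read from these counts.

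Within loci of both lists the share within 2-fold neither rose nor fell steadily with the number of reads. Among the 50 loci of both lists with at least 200 reads, 34 lay within 2-fold, 8 were higher in osdrm2 and 8 lower, and the median ratio was 0.969. Among the 255 loci with 50 to 99 reads, 86 lay within 2-fold, 119 were higher and 50 lower, with a median ratio of 1.69. At 100 to 199 reads 41 of 89 lay within 2-fold, at 20 to 49 reads 365 of 878, and at 8 to 19 reads, where the list minimum limits the ratio, 963 of 1295. Over the 1272 loci of both lists with at least 20 reads, RPM in the 2 lists had a Spearman correlation of 0.04 (Pearson of logs 0.27). Over the 139 with at least 100 reads it was 0.25 (Pearson of logs 0.32). These values describe loci chosen by their summed reads.

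**Figure D2:**
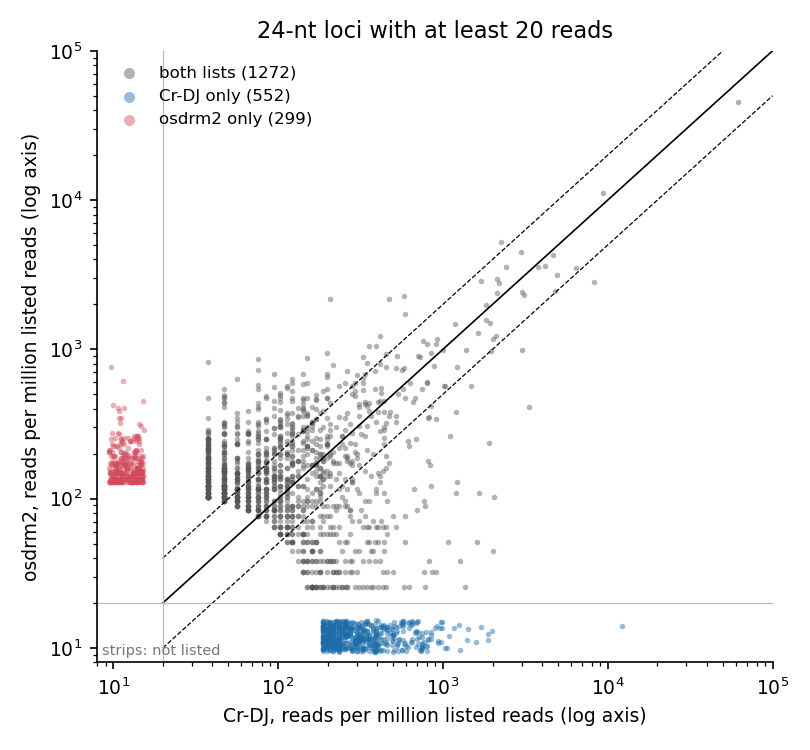
Level in RPM in Cr-DJ (x axis) and osdrm2 (y axis), both on log axes, for the 2123 loci with at least 20 reads in both lists together. Grey points are loci of both lists, and the blue and red points in the strips at the edges are loci that the other list did not hold, spread at random within the strip. The solid line marks equal levels and the dashed lines a 2-fold difference. The 552 loci without a listed osdrm2 read reach 12131 RPM, the 299 without a listed Cr-DJ read reach 764, and of the 50 loci of both lists with at least 200 reads 34 lie between the dashed lines.

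Most loci were the size of 1 small RNA. The median width was 25 bp in loci of both lists and 24 bp in both classes of 1 list. A locus of both lists joins positions of 2 lists, so its width is not on an equal footing with that of 1 list. Most of the 2038 loci wider than 50 bp were in 1 list only, but their share was largest in the class of both lists. In that class 798 of 2567 loci (31.1%) were wider than 50 bp, against 362 of 6087 (5.95%) in Cr-DJ only and 878 of 14163 (6.199%) in osdrm2 only. Of the loci wider than 300 bp, both lists held 68, osdrm2 only 26 and Cr-DJ only 1. The 68 shared ones contained 291 Cr-DJ positions and 444 osdrm2 positions, and 26 of them stood 2-fold or more above Cr-DJ in RPM and 5 below. Over all 1272 loci of both lists with at least 20 reads these numbers were 493 and 253. The 68 were taken without a minimum of reads, so the sets are not cut alike. With this limit, the share of higher ones was close to that of all, while the share of lower ones was smaller among the wide loci, on a count of 5.

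The 3 widest loci were listed in both genotypes and lay within 2-fold of each other in RPM. The widest, 1590 bp on chromosome 8 from 20239554 to 20241143, had 126 reads at 13 positions in Cr-DJ and 229 at 19 positions in osdrm2, or 1184 and 1470 RPM. Its neighbour from 20243195 to 20244427 had 195 reads at 15 positions and 307 at 20 positions, or 1832 and 1971 RPM. In both of them the leading position was the same in the 2 lists. The locus on chromosome 7 from 138353 to 139463, which met an H3K9me2 peak, had 524 reads at 30 positions in Cr-DJ and 487 at 31 positions in osdrm2. This was 4924 and 3127 RPM, and the same position led in both, with 141 and 93 reads.

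Positions were scattered along the chromosomes. Neighbouring starts were a median of 14373 bp apart in Cr-DJ and 7794.5 bp apart in osdrm2. It was 17867 bp in the draw of 106418 osdrm2 reads, of which 81970 stayed listed, and 12637 bp in the draw with as many listed reads as in Cr-DJ. Among positions with at least 10 reads the medians were 75889 bp and 74659 bp. A share of positions formed tight stacks. The next start lay within 23 nt, so that the small RNAs overlapped, for 16.8% of neighbouring pairs in Cr-DJ and 10.5% in osdrm2. Within these stacks an offset of 1 nt was the most common in both lists, with 667 of 1892 pairs (35.3%) in Cr-DJ and 751 of 2168 (34.6%) in osdrm2.

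Beyond the stacks, starts exactly 24 nt apart, the distance of a head-to-tail arrangement, were few. The strand of the RNA is not known, so this distance cannot show such an arrangement. Over all pairs of starts, a distance of exactly 24 nt was seen 34 times in Cr-DJ and 48 times in osdrm2. The distances of 23 and 25 nt beside it were seen less often, 23 and 26 times in Cr-DJ and 24 and 35 times in osdrm2. At 1 nt there were 59.3 pairs per 1000 positions in Cr-DJ and 36.5 in osdrm2, and at 24 nt 3.02 and 2.33. The distance of 24 nt was picked for its place in the phasing of small RNAs, and its counts are small.

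**Figure D3:**
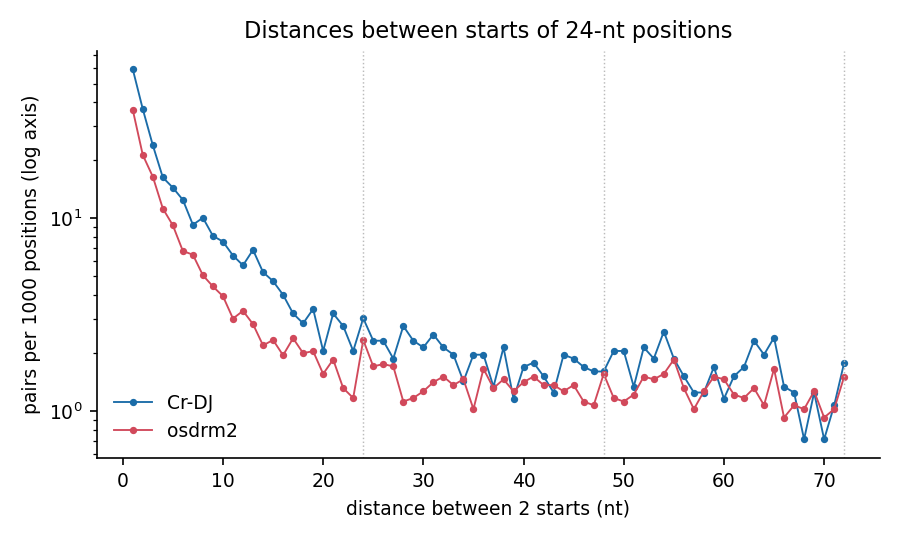
Number of pairs of listed starts per 1000 positions (y axis, log axis) against the distance between them in nt (x axis), for Cr-DJ (blue) and osdrm2 (red), 1 library each. Dotted lines mark multiples of 24 nt. Both lines fall steeply from 1 nt, where Cr-DJ has 59.3 and osdrm2 36.5 pairs per 1000 positions, to 3.02 and 2.33 at 24 nt.

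The small RNAs of Cr-DJ leaned towards the chromosome ends, and those of osdrm2 were spread more evenly. In steps of 10% of chromosome length, the outermost step held 21.6% of Cr-DJ and 16.3% of osdrm2 positions, and the next 25.2% and 20.4%. The innermost step, 40 to 50% from the nearer end, held 15.1% of Cr-DJ and 20.9% of osdrm2 positions. Loci that only Cr-DJ listed went from 23.04% in the outermost step to 13.7% in the innermost, and loci that only osdrm2 listed from 16.0% to 21.6%. The largest coordinate in the files stood in for the chromosome length. These shares were not taken again for thinned osdrm2 or for positions with at least 10 reads.

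The 12 numbered chromosomes varied in the balance of the lists. The share of reads on chromosome 11 was 5.22% in Cr-DJ and 6.97% in osdrm2, a ratio of 1.34, and chromosomes 10 and 8 followed with ratios of 1.32 and 1.29. Of the 12, chromosome 1 had the lowest ratio, 0.819, with 13.4% and 11.001% of reads, and chromosome 3 stood at 0.887. Loci that only osdrm2 listed outnumbered those that only Cr-DJ listed 3.21-fold on chromosome 11 and 1.89-fold on chromosome 1. In the draw of 106418 osdrm2 reads these ratios were 1.31 and 0.868, and with as many listed reads as in Cr-DJ 2.02 and 1.19. Chromosome 11 thus stayed above chromosome 1, while the fall of both ratios is set by drawing from osdrm2 alone. Over the 12 chromosomes the ratio of positions and the cover by H3K9me2 peaks had a Spearman correlation of 0.52, as a description of these lists.

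The chromosomes were then cut into 380 bins of 1 Mb and sorted by their cover by H3K9me2 peaks into 4 classes of 95 bins. H3K9me2 is a histone mark of silent heterochromatin, and its peaks were called from 1 library without a control. The sample label names the variety ZH11 for that library, whereas the series description assigns the peaks to Cr-DJ, so it is not settled whether they come from the control's own variety. In Cr-DJ the share of positions went down with the mark, from 33.1% in the class with the least cover (Wilson interval 32.3 to 34.0%) to 16.7% in the class with the most (interval 16.0 to 17.4%). In osdrm2 the same classes held similar shares, at 23.7% (interval 23.2 to 24.3%) and 24.6% (interval 24.1 to 25.2%). Reads went from 36.3% in the class with the least cover to 16.0% in that with the most in Cr-DJ, and from 26.0% to 24.2% in osdrm2, where positions and reads thus ran in opposite directions. The ratio of osdrm2 to Cr-DJ positions was 1.31, 1.74, 2.04 and 2.71 from the class with the least to that with the most cover. It was not taken again for thinned osdrm2 or for positions with at least 10 reads. Over the 380 bins the Spearman correlation of positions with H3K9me2 cover was -0.50 in Cr-DJ and 0.06 in osdrm2, bins of a chromosome being neighbours and not independent.

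**Figure D4:**
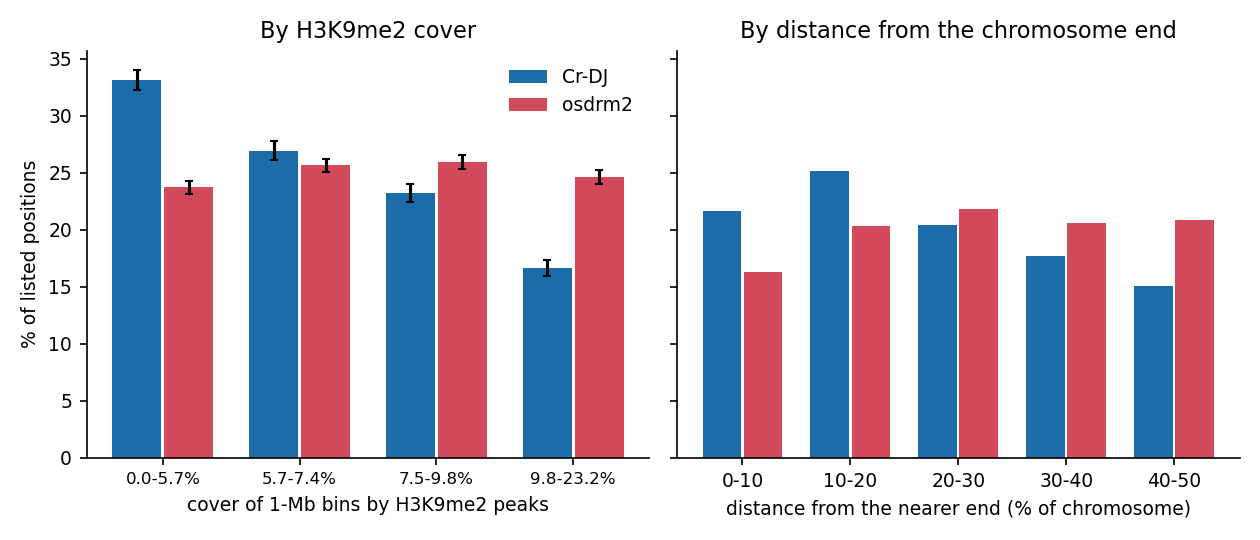
Percent of listed positions (y axis, both panels) in Cr-DJ (blue) and osdrm2 (red), 1 library each. The left panel sorts 1-Mb bins into 4 classes by their cover by H3K9me2 peaks, with Wilson 95% intervals, and the right panel sorts positions by their distance from the nearer chromosome end. Cr-DJ goes from 33.1% to 16.7% with rising cover while osdrm2 stays between 23.7% and 25.9%. The sample label of the H3K9me2 peaks names the variety ZH11.

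At the scale of single peaks the same contrast was seen for H3K9me2. Its 10159 peaks covered 7.83% of the coordinate span. Of the loci that only osdrm2 listed, 1002 of 14163 met such a peak (7.07%, Wilson interval 6.66 to 7.51%). Of those that only Cr-DJ listed, 47 of 6087 did (0.772%, interval 0.581 to 1.03%), and of those in both lists 78 of 2567 (3.04%, interval 2.44 to 3.78%). The share of osdrm2-only loci was thus slightly below the cover of 7.83%, and that of Cr-DJ-only loci far below it. The order of the classes held at a matched number of reads. Among loci with 4 to 9 reads, 7.39% of 12346 osdrm2-only loci and 0.923% of 4548 Cr-DJ-only loci met a peak, and among loci with 10 to 19 reads 5.07% of 1518 and 0.405% of 987. At 20 reads or more the numbers were 13 of 299 and 1 of 552. Loci at least 2-fold lower in osdrm2 met an H3K9me2 peak in 7 of 805 cases (0.870%), and loci at least 2-fold higher in 31 of 792 (3.91%). Loci between these limits met one in 19 of 526 cases (3.61%), so the higher loci were close to them and the lower ones stood below. The lower loci included the 552 Cr-DJ-only ones and the higher loci the 299 osdrm2-only ones. These counts are therefore not separate from the classes above, and loci of both lists were not taken alone.

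H3K27me3, the histone mark of Polycomb repression, was mapped in Cr-DJ and ran the other way. Its 13385 peaks covered 7.52% of the coordinate span. Loci that only Cr-DJ listed met a peak in 782 of 6087 cases (12.8%, interval 12.0 to 13.7%), loci of both lists in 232 of 2567 (9.04%, interval 7.99 to 10.2%) and loci that only osdrm2 listed in 966 of 14163 (6.82%, interval 6.42 to 7.25%). Against the cover of 7.52%, Cr-DJ-only loci thus stood above and osdrm2-only loci slightly below. With 4 to 9 reads the shares were 12.8% for Cr-DJ only and 6.68% for osdrm2 only, and with 10 to 19 reads 14.1% and 7.64%. At 20 reads or more they were 11.1% (interval 8.70 to 13.9%) and 8.36% (interval 5.73 to 12.1%), so that the intervals overlapped. Another 14.4% of Cr-DJ-only loci lay outside but within 1 kb of an H3K27me3 peak, against 9.72% of osdrm2-only loci. For H3K9me2 the shares within 1 kb were 2.65% and 6.87%. How the authors placed reads that match several positions is not known, and its part in these shares was not tested.

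**Figure D5:**
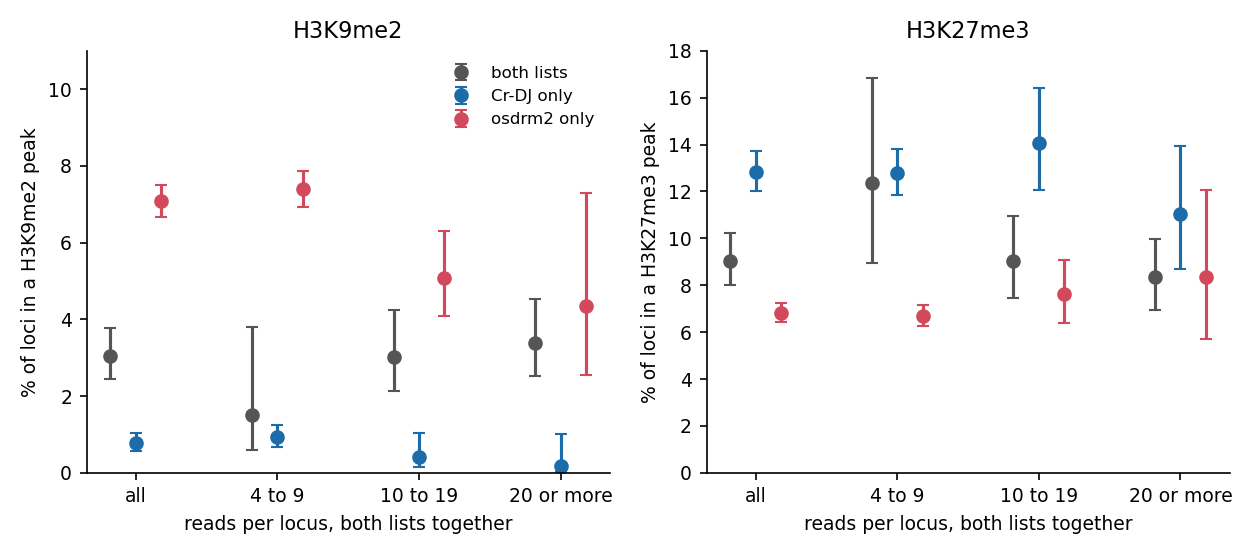
Percent of 24-nt loci that met an H3K9me2 peak (left) or an H3K27me3 peak (right) by at least 1 bp (y axes, different scales), for all loci and by the reads of both lists together (x axis). Points are loci of both lists (grey), of Cr-DJ only (blue) and of osdrm2 only (red) with Wilson 95% intervals. The sample label of the H3K9me2 peaks names the variety ZH11. In H3K9me2 peaks osdrm2-only loci stand at 7.07% and Cr-DJ-only loci at 0.772%, and in H3K27me3 peaks the order is turned, at 6.82% and 12.8%.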

How the data were processed

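Small RNA alignments were read from 1 list per library, each line giving the start and end of 1 alignment. The genotype of each list was taken from the series description. The trimming, the aligner used for them, mismatches and the genome build are not given in the sources used here. Bowtie and Bowtie2 2.1.0 are among the tools in the submitters' processing notes, without roles. Reads per position are counts of identical lines in the deposited lists. Lines of a position stood together in blocks of at least 4, and 23 positions in Cr-DJ and 18 in osdrm2 had a second block. Neighbouring blocks had equal reads in 17.5% (Cr-DJ) and 24.7% (osdrm2) of cases, against 17.6% and 24.9% for a random order. Peaks were called by the authors with MACS 1.4.2, 1 library per mark, no control, p-value limit 1e-05, per the file headers. Their fold enrichment, a ratio over local background, is the authors' value and was used only as a filter.

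Positions within 200 bp were merged into loci. Folds used loci with at least 20 reads, with 3 reads set for a missing list. For named loci 3 reads were set for each position of the other list. Wilson and exact Poisson intervals came from scipy 1.17.1 in Python 3.11.15. Locus merging, folds, overlap and thinning were tested on simulated data. Loci are named by rule: the 5 with the most reads; among those with at least 100 reads the 5 with the largest rise and the 5 with the largest fall in RPM (reads per 1000000 listed reads); the 5 most-read loci of each list alone; and the 3 widest. The rule, the members and the read classes were chosen with earlier results of these data known. The table of gene expression in osddm1a/1b was not used here.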

Additional observations from a re-analysis of the deposited data

How the results depend on the processing

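No paired analysis was possible because each small RNA genotype had 1 library, and no replicate could be left out. Of the values recomputed under other settings, 56 moved by less than their counting interval (counts by less than 1.5 times), 50 by more and 1 turned direction. That was the ratio of positions, 0.934 with osdrm2 thinned to the Cr-DJ total, which left 81970 listed reads. Thinned to as many listed reads as Cr-DJ, chosen after seeing the data, it was 1.24, the shares of Cr-DJ and osdrm2 loci in both lists 25.9% and 19.2%, the median osdrm2 spacing 12637 bp, and higher loci 42.1% of those 2-fold higher or lower. At 10 reads or more the ratios of reads and positions were 1.10 and 1.13. The shares of Cr-DJ and osdrm2 loci in both lists (29.7% and 15.3%) were 27.6% and 13.9% with merging within 50 bp, 32.5% and 17.6% within 500 bp, 36.1% and 19.96% within 1000 bp, 23.1% and 22.5% after thinning, and 24.0% and 20.5% for positions of at least 10 reads. For loci of at least 50 reads, a choice made after seeing the data, thinning gave 98.2% of osdrm2 loci, and thinning osdrm2 to 20% of its reads gave 36.2% of Cr-DJ and 100% of osdrm2 loci. The direction of both changes is set by the thinning, so they say nothing of stability.

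Counts of loci 2-fold higher and lower were 2384 and 2050 from 10 reads, 37 and 48 from 100 reads, and 468 higher after thinning. Higher loci were 49.6% of both, and 56.9% without scaling, 38.3% with the median ratio, 53.8% from 10 reads, 43.5% from 100 reads, 52.7% with merging within 1000 bp, 38.8% after thinning and 46.0% with 3 reads per position for a missing list, a floor added after seeing the data. The median width of shared loci was 24 bp with merging within 50 bp, 31 bp within 500 bp and 24 bp after thinning. Median spacing was 17867 bp in thinned osdrm2, and 75889 bp (Cr-DJ) and 74659 bp (osdrm2) from 10 reads. In the bins with the most H3K9me2, Cr-DJ reads came to 17.0% and osdrm2 reads to 25.3% without the most abundant position, and osdrm2 reads to 22.1% with bins of 500 kb. With peaks of at least 4-fold enrichment the shares in H3K27me3 were 2.84% (both lists), 5.37% (Cr-DJ only) and 2.09% (osdrm2 only), and in H3K9me2 0.740%, 0.148% and 1.51%. After thinning, chosen after seeing the data, 6.61% of osdrm2-only loci lay in H3K9me2. Among shared loci with 4 to 9 reads, also chosen then, 12.4% lay in H3K27me3 and 1.498% in H3K9me2. The order of Cr-DJ-only and osdrm2-only loci held for both marks in every alternative run. The cause of the other moves was not tested. The list minimum of 4 reads and the unknown library totals limit what an unlisted locus can show.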
